A study of Mus musculus with 2 samples.

Results

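The genes described here are 10 members of the piRNA pathway, *Piwil2*, *Piwil4*, *Mov10l1*, *Pld6*, *Asz1*, *Tdrkh*, *Tdrd1*, *Stk31*, *Tdrd9* and *Mael*, taken by symbol from the 32285 genes of the count tables. All 10 were found, and all 10 had UMIs in the germ cells of both libraries. The study sequenced single cells from the testes of 1 control mouse and 1 *Brca1* vKO mouse, both at postnatal day 7 (PD7), on a droplet platform. There, every captured RNA is tagged for its cell and for itself, and the latter tag, the unique molecular identifier (UMI), lets copies of 1 molecule be counted once. *Brca1* vKO stands for *Brca1* f/- Vasa-Cre: this mouse carried 1 floxed and 1 deleted *Brca1* allele, and the Vasa-Cre transgene removes the floxed allele in germ cells from fetal life onwards. The somatic cells of the *Brca1* vKO mouse therefore also carried the deleted allele, while the alleles of the control are not given in the sources used here. The question put to these genes was whether their level depended on the stage of the spermatogonia and on the genotype. With 1 mouse per genotype no test is possible: intervals are exact 95% intervals of counting error only, ratios are descriptions of these 2 libraries, and differences between mice, preparations and sequencing runs cannot be told apart from genotype.

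piRNAs are small RNAs of the germ line that guide PIWI proteins to transposon transcripts and, in the fetal testis, to the transposon genes themselves, which are then methylated. Long precursor RNAs are unwound, cut at the surface of mitochondria, loaded onto PIWI proteins and amplified by cutting transposon RNA in granules next to the mitochondria. In the mouse, loss of most of these genes leads to transposon expression, arrest of meiosis and male sterility. *Piwil2* encodes MILI, the cytoplasmic PIWI protein, and *Piwil4* encodes MIWI2, its nuclear partner. *Mov10l1* encodes the RNA helicase that takes up precursors, *Pld6* the mitochondrial nuclease MitoPLD, *Asz1* a mitochondrial membrane protein (GASZ) and *Tdrkh* a Tudor protein anchored to mitochondria that takes part in trimming. *Tdrd1* encodes the Tudor scaffold that binds MILI, and *Stk31* a germ cell protein with a Tudor and a kinase-like domain. *Tdrd9*, an RNA helicase, and *Mael* belong to the granules that hold MIWI2.

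The upstream sequences, which the choice of members did not use, were searched for motifs. *Piwil2* (chr14:70372477-70429383, minus strand) has no entry in the RefSeq table of promoters (build GRCm38.p6). The other 9 members have an entry, and the 250 bases before the start nearest to the 5′ end of the gene were searched on both strands for CACGTG, the palindromic E-box bound by basic helix-loop-helix proteins. It was found upstream of 6 of these 9 members, against 6.02% of all 32851 promoters of the table. The same letters occur 29 bases before the start of *Ddx4*, a general germ cell gene, and *Dazl* has none. E-boxes hold a CpG and the members' windows were rich in CpG, with a median of 15 CpG dinucleotides against 6 over all promoters, so the shares are not of like windows. A match describes letters only and no binding was measured here. The 7 matches are shown with up to 12 bases on either side, 5′ to 3′ on the strand of the gene, with the E-box in capitals. They lie 246 bases before the start for *Mov10l1* (chr15:88982744-88982765), 33 for *Pld6* (chr11:59787673-59787702), 11 for *Tdrd1* (chr19:56826186-56826208) and 120 for *Stk31* (chr6:49395472-49395501). Those of *Tdrd9* lie 165 (chr12:111971382-111971411) and 95 bases before its start (chr12:111971452-111971481), and that of *Mael* lies 223 bases before (chr1:166238950-166238979).
Mov10l1: ccttCACGTGctaaccgccaac
Pld6: ggggcgggctggCACGTGttgggcgcgcaa
Tdrd1: tggggctgcgcgCACGTGggagt
Stk31: aggccggccaccCACGTGaccagggctgcg
Tdrd9, distal: ggtctccataaaCACGTGcctgtccaggtc
Tdrd9, proximal: gcacgaggctccCACGTGcatgcagggcct
Mael: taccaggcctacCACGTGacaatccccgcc

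No E-box was found in this window of *Piwil4*, *Asz1* or *Tdrkh*. A second motif, CNCCTCAG, described for the meiotic factor STRA8, was searched because *Stra8* is one of the genes that define the stages below. It matched in 1 of the 9 members, *Stk31*, 47 bases before the start, against 6.42% of all promoters. The E2F motif TTCCCGC matched in 0 of the 9 members, against 3.82% of all promoters. The 130 bases before the start of the 3 members with the strongest differences between stages or with both kinds of match are *Pld6* (chr11:59787658-59787787, minus strand), *Piwil4* (chr9:14740673-14740802, minus strand) and *Stk31* (chr6:49395474-49395603, plus strand). The capitals mark the E-box in *Pld6*, and the E-box followed by the reverse complement of the STRA8 motif in *Stk31*.
Pld6: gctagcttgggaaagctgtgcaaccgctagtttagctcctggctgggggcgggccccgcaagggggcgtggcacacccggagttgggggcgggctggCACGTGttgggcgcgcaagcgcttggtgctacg
Piwil4: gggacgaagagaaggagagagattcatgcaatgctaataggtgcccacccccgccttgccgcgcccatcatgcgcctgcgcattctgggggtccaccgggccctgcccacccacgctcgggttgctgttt
Stk31: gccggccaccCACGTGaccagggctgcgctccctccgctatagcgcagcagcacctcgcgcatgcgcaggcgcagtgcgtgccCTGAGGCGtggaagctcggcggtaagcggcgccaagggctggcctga

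In GENCODE M21 on GRCm38 (mm10), no other gene shares exons with a member on the same strand. An exon of *Tdrkh* (chr3:94413273-94434668, plus strand) overlaps an exon of *Oaz3* on the opposite strand, and an exon of *Piwil4* (chr9:14696230-14740733, minus strand) overlaps the antisense gene *Gm10706*. Whether the counting used strand is not given in the sources used here, so the counts of *Tdrkh* and *Piwil4* may hold reads of these genes.

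The tables held 5812 barcodes with 120568700 UMIs for the control mouse and 9456 barcodes with 165062097 UMIs for the *Brca1* vKO mouse, for which more cells had been loaded. After filtering, 5077 and 8712 cells remained. Clustering gave 1075 control and 275 *Brca1* vKO germ cells, defined by *Ddx4*, *Dazl*, *Sycp1* and *Zbtb16*, and 7 kinds of somatic clusters. No cluster was named for macrophages. The 2 libraries share 21 cell barcodes, and these belong to 36 of the kept cells. Scrublet marked 3.17% of control cells and 2.86% of *Brca1* vKO cells as likely doublets. The targeted gene itself had 69.8 CPM (UMIs of the gene per 1000000 UMIs of the sum) in control germ cells and 43.7 in *Brca1* vKO germ cells, a ratio of 0.626 (0.562 to 0.696). The UMIs counted can come from outside the deleted exons, so this value does not check the deletion.

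Germ cells with at least 10000 UMIs were split by the summed level of *Gfra1* and *Ret*, the receptor genes of undifferentiated spermatogonia, and of *Kit* and *Stra8*, which mark differentiating spermatogonia, at 100 CPM each. None of the 10 members took part in this split. The control library had 256 cells in the *Gfra1/Ret* class, 222 in the *Kit/Stra8* class, 77 cells high in both pairs (mixed class), 146 cells low in both (marker-low class) and 374 low-RNA cells under the depth limit. The *Brca1* vKO library had 153, 9, 50, 14 and 49 cells in the same order. The classes are ranges of a score and not types: 76 of 701 control cells and 32 of 226 *Brca1* vKO cells lay close to the cut of a pair. The *Kit/Stra8* class of the *Brca1* vKO library rests on 9 cells with 333340 UMIs in all, against 11330220 UMIs in the control, and its intervals are wide.

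Within the control testis, *Piwil4* was lower in the *Kit/Stra8* than in the *Gfra1/Ret* class, and *Pld6* was higher there. Only for *Mov10l1* and *Tdrd9* did the interval of the ratio hold 1. *Stk31* was also lower, just short of the 1.5-fold difference counted here, and *Tdrkh* was higher by a smaller factor. Of the 10 members, 1 was higher and 1 lower by at least 1.5 times, whereas 18.1% of all 13480 genes tested, those reaching 50 UMIs over the pair of sums, were higher and 14.4% were lower, so the members' counts lie near the background. The median ratio of the members was 0.94 and that of all genes 1.06.

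**Figure D1:**
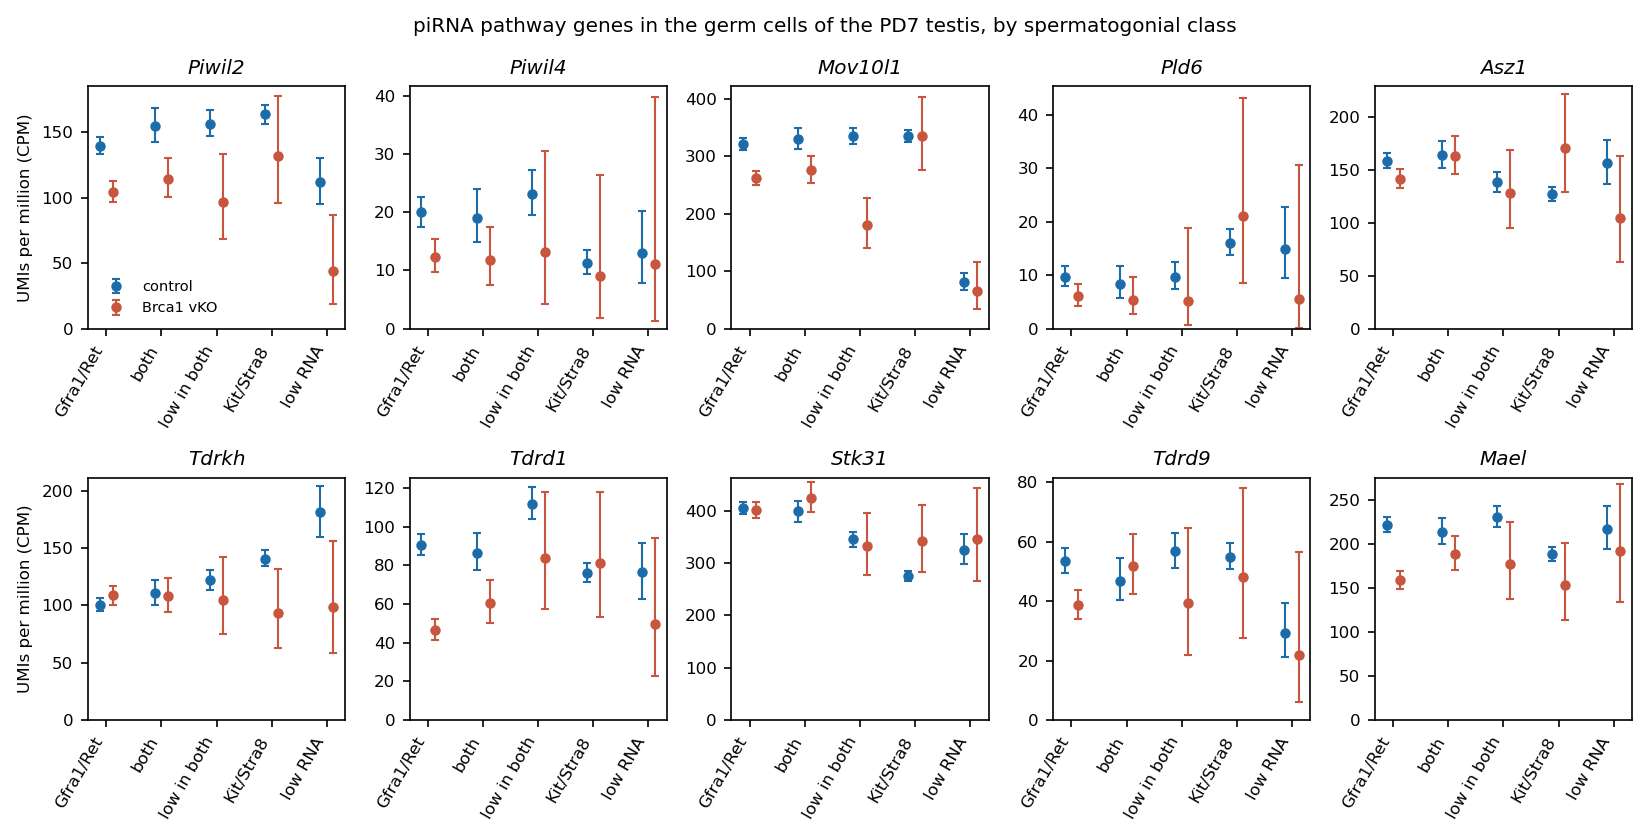
Level of each of the 10 genes (CPM, linear axis from 0) in 5 classes of germ cells of the control (blue) and *Brca1* vKO (red) library; points are sums over all cells of a class and bars are exact 95% Poisson intervals of counting error. *Piwil4* is at 19.95 CPM in the *Gfra1/Ret* class and 11.3 CPM in the *Kit/Stra8* class of the control while *Pld6* is at 9.73 and 16.1 CPM, and *Mov10l1* is far lower in the low-RNA cells of both libraries.

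The PIWI genes differed from each other. *Piwil2* had 139.7 CPM (133 to 147) in the *Gfra1/Ret* class and 163 CPM (156 to 171) in the *Kit/Stra8* class, a ratio of 1.17 (1.09 to 1.25). *Piwil4* had 19.95 CPM (17.5 to 22.6) and 11.3 CPM (9.43 to 13.4), a ratio of 0.566 (0.453 to 0.705). *Piwil4* stayed near its first level in the mixed class, with 19.0 CPM, and in the marker-low class, with 23.2 CPM, so that only the *Kit/Stra8* class stood below the other deep classes beyond counting error. With each cell thinned to 10000 UMIs, a *Piwil4* UMI is expected in 18.0% of the 256 *Gfra1/Ret* cells (13.5% to 23.2%) and 9.07% of the 222 *Kit/Stra8* cells (5.64% to 13.6%), as the mean over all possible draws. Without thinning, at medians of 44147 and 50152 UMIs per cell, 55.5% and 34.2% of cells held one. At 2000 UMIs per cell the expected share was 0.0719% in the 861 stromal-like cells, taken as cells outside the germ line, and 2.99% in control germ cells.

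Among the processing genes, *Mov10l1* was level and *Pld6* was not. *Mov10l1* had 322 CPM (312 to 332) in the *Gfra1/Ret* class and 335 CPM (325 to 346) in the *Kit/Stra8* class, a ratio of 1.04 (0.996 to 1.09). *Pld6* had 9.73 CPM (8.04 to 11.7) and 16.1 CPM (13.8 to 18.6), a ratio of 1.65 (1.30 to 2.10). The mixed and marker-low classes stood with the *Gfra1/Ret* class for *Pld6*, at 8.31 and 9.65 CPM. After thinning, a *Pld6* UMI is expected in 9.25% of *Gfra1/Ret* cells (5.996% to 13.5%) and 15.3% of *Kit/Stra8* cells (10.9% to 20.8%), and without it 34.0% and 52.3% held one. *Asz1* was moderately lower in the *Kit/Stra8* class, with 159 CPM against 127 CPM and a ratio of 0.799 (0.746 to 0.856). *Tdrkh* went the other way, from 101 to 141 CPM with a ratio of 1.40 (1.30 to 1.51), and its mixed and marker-low classes lay in between at 111 and 122 CPM.

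Of the scaffold genes, *Tdrd1* had 90.4 CPM (85.2 to 96.0) in the *Gfra1/Ret* class and 76.2 CPM (71.2 to 81.4) in the *Kit/Stra8* class. Its highest value was in the marker-low class, at 112 CPM (104 to 121), which lies beyond the intervals of both. The 5 progenitor markers summed to 244 CPM in that class, against 122 CPM in the *Gfra1/Ret* class and 105 CPM in the *Kit/Stra8* class, with none at 0. Sertoli markers summed to 487 CPM there against 165 CPM in the *Gfra1/Ret* class, myoid markers to 228 against 80.6 CPM, and 14.4% of its cells were marked as doublets, against 5.86%. Their part in the *Tdrd1* value was not tested. *Stk31* had 406 CPM (394 to 417) in the *Gfra1/Ret* class, 345 CPM in the marker-low class and 275 CPM (266 to 285) in the *Kit/Stra8* class, a ratio of 0.679 (0.649 to 0.710) between the outer classes. The decrease of *Stk31* was the second strongest among the members, after *Piwil4*. Of the genes tied to the nuclear branch, *Tdrd9* was level, with 53.5 and 54.9 CPM and a ratio of 1.03 (0.918 to 1.15). *Mael* had 222 and 188 CPM, a ratio of 0.850 (0.803 to 0.9003). For comparison, the general germ cell genes gave ratios of 0.813 (*Ddx4*) and 1.26 (*Dazl*).

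Markers of other cells moved with this comparison. In the control, 4 of 4 red blood cell markers were higher in the *Kit/Stra8* class, with a summed level of 1308 against 117 CPM. The same held for 4 of 4 Leydig cell markers, with 50.3 against 5.99 CPM, 4 of 4 stromal markers, with 148 against 62.1 CPM, and 4 of 4 Sertoli cell markers, with 248 against 165 CPM. Of these 16 markers only *Cyp17a1* of the Leydig list was at 0, in the *Gfra1/Ret* class. In the *Brca1* vKO library the red blood cell markers summed to 40.9 CPM in the *Gfra1/Ret* class and rested on 14 UMIs in the *Kit/Stra8* class, with *Hba-a2* at 0, and 0 of 4 Sertoli cell markers were higher there. All 4 neutrophil markers were lower in the *Kit/Stra8* class of that library, with 15.0 CPM (5 UMIs, *Ngp* at 0) against 283 CPM. All 4 Leydig cell and all 4 pericyte markers were lower as well, with 1 and 0 UMIs in that class. Their part in the members' ratios was not tested. Removing marked doublets left *Pld6* at 1.84 and *Piwil4* at 0.57. With a mitochondrial limit of 5% *Pld6* was at 3.31. With all cells thinned to 10000 UMIs, *Pld6* was at 1.26 in 1 random draw and no longer counted. It was at 1.68 as the mean over all draws, an alternative chosen after seeing the data. How often a draw loses the call was not computed. *Piwil4* stayed between 0.482 and 0.647 under all alternatives run, with 0.523 in the draw and 0.482 as the mean.

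In the *Brca1* vKO library the same split rested on 9 cells in the *Kit/Stra8* class. Of the 9 members with enough UMIs, 1 was higher by at least 1.5 times and 0 were lower, where 13.0% of all 10104 genes tested were higher and 24.6% lower. The member that was higher was *Tdrd1*, with 46.3 CPM in the *Gfra1/Ret* class and 81.0 CPM in the *Kit/Stra8* class, a ratio of 1.75 (1.13 to 2.60). The member without enough UMIs was *Pld6*, with 38 UMIs (6.07 CPM) against 7 UMIs (21.0 CPM), a ratio of 3.46 with an interval from 1.30 to 7.84. It was at 1.81 with stages from germ sub-clusters and 1.21 in the random draw of thinned cells, and at 3.54 as the mean over draws. *Pld6* was thus higher in the *Kit/Stra8* class in both libraries under the alternatives run, by different factors. *Piwil4* rested on 77 and 3 UMIs and gave a ratio of 0.731 whose interval, 0.148 to 2.22, holds the control value as well as 1.

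The remaining members gave ratios between 0.852 and 1.28 in the *Brca1* vKO library. *Mov10l1* had 262 and 336 CPM, a ratio of 1.28 (1.05 to 1.55), but 0.480 with the 5% mitochondrial limit, which leaves 5 of the 9 cells, and 1.03 as the mean over thinned draws. *Piwil2* gave 1.27 (0.913 to 1.72), *Tdrd9* 1.25 (0.701 to 2.07) and *Asz1* 1.21 (0.906 to 1.58), with intervals that hold 1. *Tdrd9* turned to 0.530 with the 5% limit, and *Piwil2* to 0.70 in the random draw of thinned cells (1.07 as the mean over draws). *Mael* gave 0.963 (0.712 to 1.28), *Tdrkh* 0.856 (0.577 to 1.23) and *Stk31* 0.852 (0.700 to 1.03). The stage ratio of *Tdrd1* in the *Brca1* vKO library was 2.08 times that in the control (1.39 to 3.11), with 1.75 to 2.52 over the alternatives. That of *Asz1* was 1.51 times (1.15 to 1.99), with 1.14 at a marker cut of 200 CPM and 1.90 at the 5% limit. That of *Tdrkh* was 0.610 times the control value (0.423 to 0.881), with 0.2497 at the 5% limit and 0.872 in the random draw of thinned cells. Those of *Mov10l1* (1.23, 1.01 to 1.498) and *Stk31* (1.26, 1.03 to 1.52) were above 1 with intervals that start just above it, but *Mov10l1* was at 0.485 with the 5% limit, and the intervals of *Piwil2*, *Piwil4*, *Pld6*, *Tdrd9* and *Mael* held 1.

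For the comparison of genotypes, the *Gfra1/Ret* class was the only deep class with more than 100 cells in both libraries. There 9 of the 10 members had ratios of *Brca1* vKO over control below 1, though the interval of *Stk31*, among these 9, held 1. *Tdrd1*, *Piwil4* and *Pld6* were lower by at least 1.5 times. The background for these 3 of 10 is that 9.75% of all 12717 genes tested were lower and 10.7% higher by that factor, and 0 members were higher. The median ratio over the members was 0.733, and over all genes 1.0003. *Tdrkh* and *Stk31* stood apart, at or near equal levels.

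*Tdrd1* had 90.4 CPM in the control and 46.3 CPM (41.2 to 52.0) in the *Brca1* vKO library, which gave a ratio of 0.512 (0.449 to 0.584). Among all genes tested, 4.20% had a lower ratio than *Tdrd1*. After thinning, a *Tdrd1* UMI is expected in 56.6% of control cells (50.2% to 62.7%) and 36.1% of *Brca1* vKO cells (28.5% to 44.2%) of this class, and without thinning 93.8% and 77.8% held one. *Piwil4*, the MIWI2 gene, had 19.95 and 12.3 CPM (9.71 to 15.4), a ratio of 0.617 (0.471 to 0.8004), and its expected share of thinned cells was 18.0% against 12.2% (7.45% to 18.4%), or 55.5% against 35.9% without thinning. *Pld6* had 9.73 and 6.07 CPM (4.30 to 8.34), a ratio of 0.624 (0.421 to 0.907). The expected share of thinned cells for *Pld6* was 9.25% against 6.31% (3.02% to 11.4%), and 34.0% and 20.9% held a UMI without thinning.

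*Mael*, *Tdrd9* and *Piwil2* lay within a narrow range below the control. *Mael* had 222 and 159 CPM, a ratio of 0.717 (0.666 to 0.771), and *Tdrd9* had 53.5 and 38.5 CPM, a ratio of 0.721 (0.619 to 0.837). *Piwil2* had 139.7 and 104 CPM, a ratio of 0.745 (0.679 to 0.816). *Mov10l1* and *Asz1* were closer, at 0.814 (0.768 to 0.863) and 0.892 (0.823 to 0.966). *Stk31* had 406 and 401 CPM with a ratio of 0.989 (0.942 to 1.04), and *Tdrkh* had 101 and 109 CPM with a ratio of 1.08 (0.983 to 1.19).

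**Figure D2:**
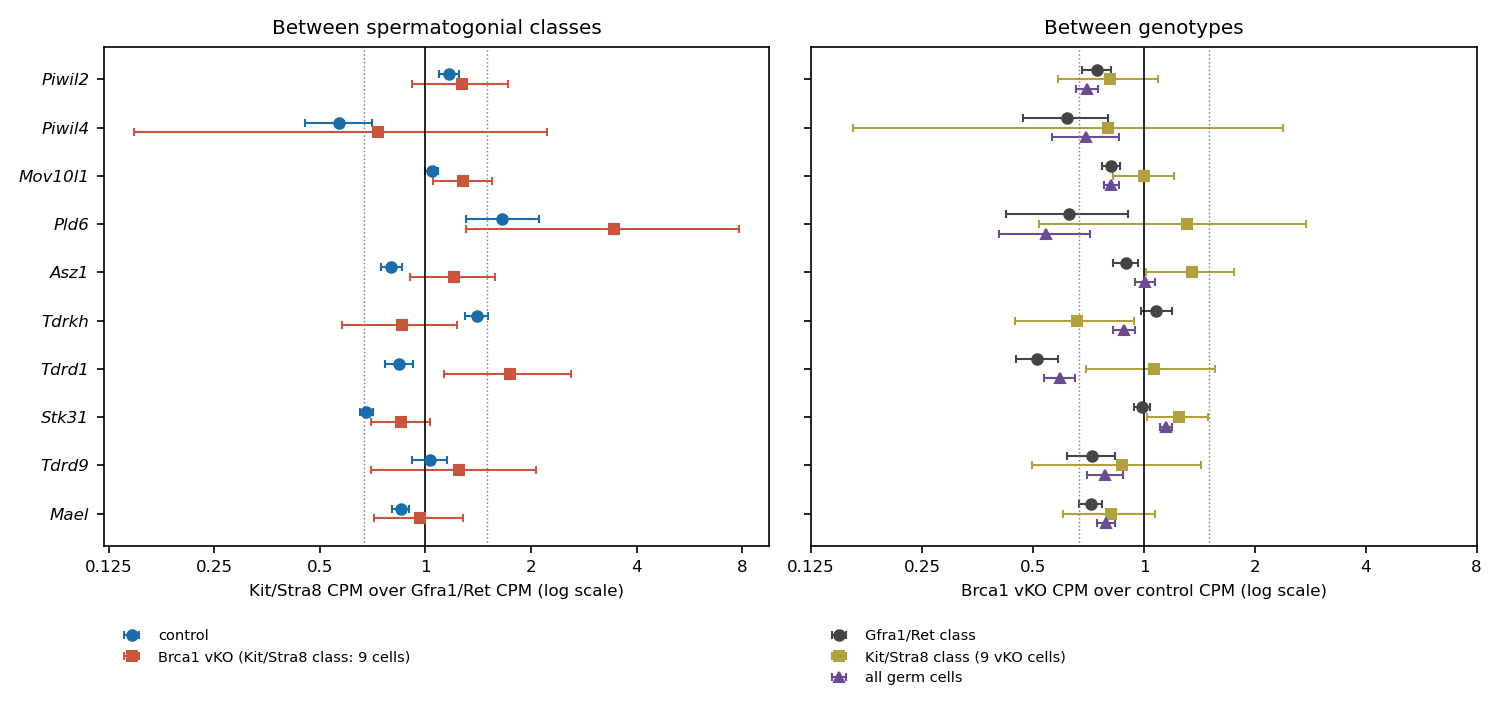
Ratios of CPM (log axes, exact conditional 95% intervals of counting error; dotted lines at 1.5 times up and down): left, the *Kit/Stra8* over the *Gfra1/Ret* class within the control (circles) and *Brca1* vKO (squares) library; right, *Brca1* vKO over control in the *Gfra1/Ret* class (circles), the *Kit/Stra8* class (squares) and all germ cells (triangles). In the *Gfra1/Ret* class 9 of 10 members lie below 1, with *Tdrd1* lowest at 0.512, and in the *Kit/Stra8* class, which holds 9 *Brca1* vKO cells, *Tdrd1* is at 1.06.

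General germ cell genes were also lower in this class, *Ddx4* with a ratio of 0.816 (0.776 to 0.858) and *Dazl* with 0.962 (0.933 to 0.992), and the 4 germ cell markers summed to 2344 CPM in the control and 1995 CPM in the *Brca1* vKO library. The classes were not the same mixture. All 5 progenitor markers were lower in the *Brca1* vKO class, with a summed level of 45.7 against 122 CPM and *Neurog3* at 0, while the undifferentiated markers summed to 807 against 663 CPM, with 4 of 6 higher and 2 lower. Of the differentiating markers 4 of 5 were lower, with a sum of 76.1 against 142 CPM, and all 4 red blood cell markers were lower, with 40.9 against 117 CPM. All 4 neutrophil markers were higher, with 283 against 1.91 CPM (*Ngp* at 0 in the control), and all 4 Sertoli markers, with 273 against 165 CPM, and all 4 stromal markers, with 128 against 62.1 CPM. Marked doublets made up 14.4% of these cells in the *Brca1* vKO library and 5.86% in the control. Without them 1 member, *Tdrd1* with a ratio of 0.53, was still lower by at least 1.5 times, and *Piwil4* and *Pld6* had ratios of 0.68 and 0.72. *Pld6* also fell short with a marker cut of 200 CPM (0.713) and with thinned cells (0.756 in the draw and 0.682 as the mean over draws). The part of the mixture in these ratios was not tested.

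The other classes have fewer *Brca1* vKO cells and wider intervals. In the mixed class, with 77 and 50 cells, *Tdrd1* had 86.5 and 60.5 CPM, a ratio of 0.699 (0.564 to 0.863), *Piwil4* 0.616 (0.371 to 0.990) and *Piwil2* 0.738 (0.631 to 0.860). *Tdrd9* there had 46.9 and 51.7 CPM, a ratio of 1.10 (0.859 to 1.41). In the marker-low class, with 146 and 14 cells, *Mov10l1* had 336 and 180.3 CPM, a ratio of 0.537 (0.417 to 0.683). *Pld6* gave 0.542 (0.0641 to 2.04), *Piwil4* 0.564 (0.181 to 1.35) and *Piwil2* 0.619 (0.433 to 0.859) there. *Pld6* and *Piwil4* rest on 2 and 5 UMIs of the *Brca1* vKO library, and their intervals hold 1. The marker-low classes differed in other ways: myoid markers summed to 228 CPM for the control and 504 CPM for *Brca1* vKO, stromal markers to 123 and 327 CPM, Sertoli markers to 487 and 102 CPM and progenitor markers to 244 and 107 CPM. Undifferentiated markers summed to 99.2 and 222 CPM (*Eomes* at 0 in both) and red blood cell markers to 137 and 47.0 CPM. Differentiating markers summed to 276 and 120 CPM, with *Stra8*, *Dmrtb1* and *Prdm9* at 0 for *Brca1* vKO. Of the defining myoid markers *Fbxl22* was at 0 for *Brca1* vKO. Marked doublets made up 14.4% and 21.4% of these cells, and the cells had medians of 41718.5 and 22053.5 UMIs. Red blood cell markers in the mixed class summed to 881 CPM for the control and 35.6 CPM for *Brca1* vKO. In the same order, undifferentiated markers summed there to 587 and 904 CPM and differentiating markers to 412 and 292 CPM. Sertoli markers summed to 152 and 93.2 CPM and neutrophil markers to 1.34 (*S100a8* at 0) and 18.5 CPM. Marked doublets made up 10.4% and 2% of the mixed class. Their part in these ratios was not tested. The median was 0.719 over the 10 members in the marker-low class and 0.882 over the 9 with enough UMIs in the mixed class. That of all genes was 0.919 and 0.969. By at least 1.5 times, 4 members were lower in the marker-low and 1 in the mixed class, beside 26.1% and 12.1% of all genes. In both classes 0 members were higher, beside 10.2% and 6.12%. In the *Kit/Stra8* class 0 members were higher and 1 was lower by at least 1.5 times, where 10.4% of all 11669 genes were higher and 25.7% lower. This member was *Tdrkh*, with 141 CPM in the control and 92.998 CPM (31 UMIs) in the 9 *Brca1* vKO cells, giving a ratio of 0.660 (0.447 to 0.940). The stage markers differed as well: all 5 differentiating markers were lower for *Brca1* vKO, with a summed 569.99 against 837 CPM, and 5 of 6 undifferentiated markers were higher, with 81.0 against 25.4 CPM and *Eomes* at 0. All 4 Sertoli markers were lower, with 92.998 against 248 CPM, as were all 4 Leydig markers (1 UMI against 570 UMIs) and all 4 red blood cell markers (14 UMIs against 14817 UMIs). Their part in the ratios of this class was not tested. *Tdrd1*, at 76.2 and 81.0 CPM, gave 1.06 (0.697 to 1.56) in this class, and *Mov10l1* gave 1.003 (0.823 to 1.21). Over the alternatives run, *Mov10l1* ranged from 0.431 to 1.12 in this class.

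Over all germ cells, in which the classes have different weights in the 2 libraries, 2 members were lower and 0 higher by at least 1.5 times, beside 14.4% of all 15074 genes lower and 9.03% higher. These were *Pld6*, with 11.8 and 6.41 CPM and a ratio of 0.541 (0.405 to 0.712), and *Tdrd1*, with 88.6 and 52.4 CPM and a ratio of 0.591 (0.536 to 0.651). *Stk31* was the only member with a ratio above 1 beyond its interval, 1.15 (1.11 to 1.19), from 348 and 400.4 CPM. *Asz1* had 145 and 146 CPM. The remaining 6 members gave ratios from 0.697 (*Piwil4*) to 0.882 (*Tdrkh*). With a mitochondrial limit of 5% *Tdrd1* was at 0.721 and no longer counted, and *Piwil4* was at 0.589.

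The low-RNA germ cells, with a median of 3192 UMIs for the control and 3249 for *Brca1* vKO, were compared with the deeper cells. *Mov10l1* had 81.1 CPM (67.2 to 97.0) in the low-RNA cells of the control against 322 to 336 CPM in the 4 deeper classes, a ratio to all deeper cells of 0.246 (0.203 to 0.294). In the *Brca1* vKO library it had 66.0 CPM (34.1 to 115), from 12 UMIs, and the ratio was 0.249 (0.129 to 0.436). *Tdrd9*, the other helicase, gave 0.544 (0.392 to 0.736) in the control and 0.525 (0.142 to 1.36) from 4 UMIs in the *Brca1* vKO library. *Piwil2* gave 0.733 (0.623 to 0.856) and, from 8 UMIs, 0.411 (0.177 to 0.813). *Tdrkh* was higher in these cells of the control, with 181 CPM (160.1 to 204) and a ratio of 1.52 (1.34 to 1.72), but gave 0.918 (0.542 to 1.46) in the *Brca1* vKO library. By at least 1.5 times, 2 of 10 members were lower and 1 higher for the control, beside 45.9% and 8.47% of all genes, and 3 were lower for *Brca1* vKO, beside 42.8%. The median ratio was 0.894 and 0.859 over the members and 0.729 and 0.765 over all genes. The low-RNA cells of the control held red blood cell markers at a summed 1641 CPM and Sertoli markers at 406 CPM, against 117 to 1308 and 152 to 487 CPM over the 4 deeper classes. Those of the *Brca1* vKO library held them at 242 and 259 CPM, with *Sox9* at 0, against 35.6 to 47.0 and 92.998 to 273 CPM. The stage markers of these cells also differed between the libraries: differentiating markers summed to 595 CPM for the control and 176 CPM for *Brca1* vKO (*Prdm9* at 0), and undifferentiated markers to 95.4 and 424 CPM (*Eomes* at 0 in the latter). Their part in these ratios was not tested.

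Outside the germ line, *Pld6*, *Tdrkh*, *Piwil2* and *Tdrd1* stood above *Ddx4* and *Dazl* in Sertoli-like cells of both libraries, relative to their germ cell levels, with *Pld6* the highest. *Pld6* had 4.04 CPM in the Sertoli-like cells of the control (220 UMIs in 2039 cells) and 3.96 CPM in those of the *Brca1* vKO library (403 UMIs in 4162 cells). This was 34.1% (28.8% to 40.3%) and 61.7% (46.9% to 82.6%) of its level in germ cells of the same library. *Ddx4* and *Dazl* were set beside it as a yardstick of germ cell RNA in other cells. These were at 0.652% and 0.784% of their germ cell level in the Sertoli-like cells of the control and at 0.226% and 0.231% in those of the *Brca1* vKO library. In stromal-like cells, *Pld6* had 5 UMIs (0.344 CPM) in the control and 3 UMIs (0.116 CPM) in the *Brca1* vKO library. The level of *Pld6* in Sertoli-like cells was 11.8 times (4.96 to 36.6) that in stromal-like cells in the control and 34.2 times (11.6 to 166) in the *Brca1* vKO library, while *Ddx4* gave 1.004 (0.694 to 1.49) and 0.983 (0.609 to 1.65).

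The Sertoli-like cells were named by *Sox9*, *Amhr2*, *Rhox8* and *Clu* and fell into 2 clusters, which agreed for *Pld6*. In the control they had 4.38 and 3.45 CPM, and in the *Brca1* vKO library 4.17 and 3.65 CPM. *Pld6* did not differ between the genotypes there beyond counting error, with a ratio of 0.979 (0.828 to 1.16), where *Ddx4* had 0.327 (0.246 to 0.431). At 2000 UMIs per cell, a *Pld6* UMI is expected in 0.822% of 2017 control Sertoli-like cells (0.476% to 1.32%) and 0.852% of 4157 *Brca1* vKO ones (0.595% to 1.18%). The expected share was 0.0772% of 861 control stromal-like cells and 0.0221% of 2002 *Brca1* vKO ones, with upper bounds of 0.577% and 0.228%. Without thinning the shares in Sertoli-like cells were 9.71% and 9.01%, with medians of 18632 and 15616 UMIs per cell.

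*Tdrkh* and *Piwil2* were further from *Ddx4* and *Dazl* than *Tdrd1* was. In Sertoli-like cells *Tdrkh* had 9.22 CPM in the control and 7.48 CPM in the *Brca1* vKO library, 7.56% (6.88% to 8.29%) and 6.95% (6.31% to 7.64%) of its germ cell level. It was also above in stromal-like cells, at 4.51% and 3.98%, and in the neutrophil-like cells, at 18.2% and 8.66%, from 19 and 16 UMIs. *Piwil2* had 5.27 and 3.75 CPM in Sertoli-like cells, 3.50% (3.09% to 3.94%) and 3.54% (3.14% to 3.99%) of its germ cell level. In stromal-like cells *Piwil2* stood at 1.37% and 1.90%. The level in Sertoli-like cells was 2.56 times (1.75 to 3.86) and 1.87 times (1.40 to 2.55) that in stromal-like cells for *Piwil2*, and 1.68 times (1.32 to 2.15) and 1.75 times (1.43 to 2.15) for *Tdrkh*. In myoid-like cells *Piwil2* was at 1.33% (0.744% to 2.20%) in the control, within the bounds of *Ddx4* and *Dazl*, but in the *Brca1* vKO library it had 3.52 CPM (2.62 to 4.63), or 3.32% (2.46% to 4.41%), close to its 3.75 CPM in Sertoli-like cells. *Tdrd1* was slightly above, at 1.87% (1.496% to 2.30%) and 1.54% (1.20% to 1.95%) in Sertoli-like cells. Its level there did not differ from that in stromal-like cells beyond counting error, with ratios of 1.504 (0.877 to 2.74) and 1.39 (0.796 to 2.60). Between the genotypes the level in Sertoli-like cells had a ratio of 0.487 (0.356 to 0.664) for *Tdrd1*, 0.711 (0.609 to 0.832) for *Piwil2* and 0.811 (0.724 to 0.910) for *Tdrkh*, in the direction of *Ddx4*.

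**Figure D3:**
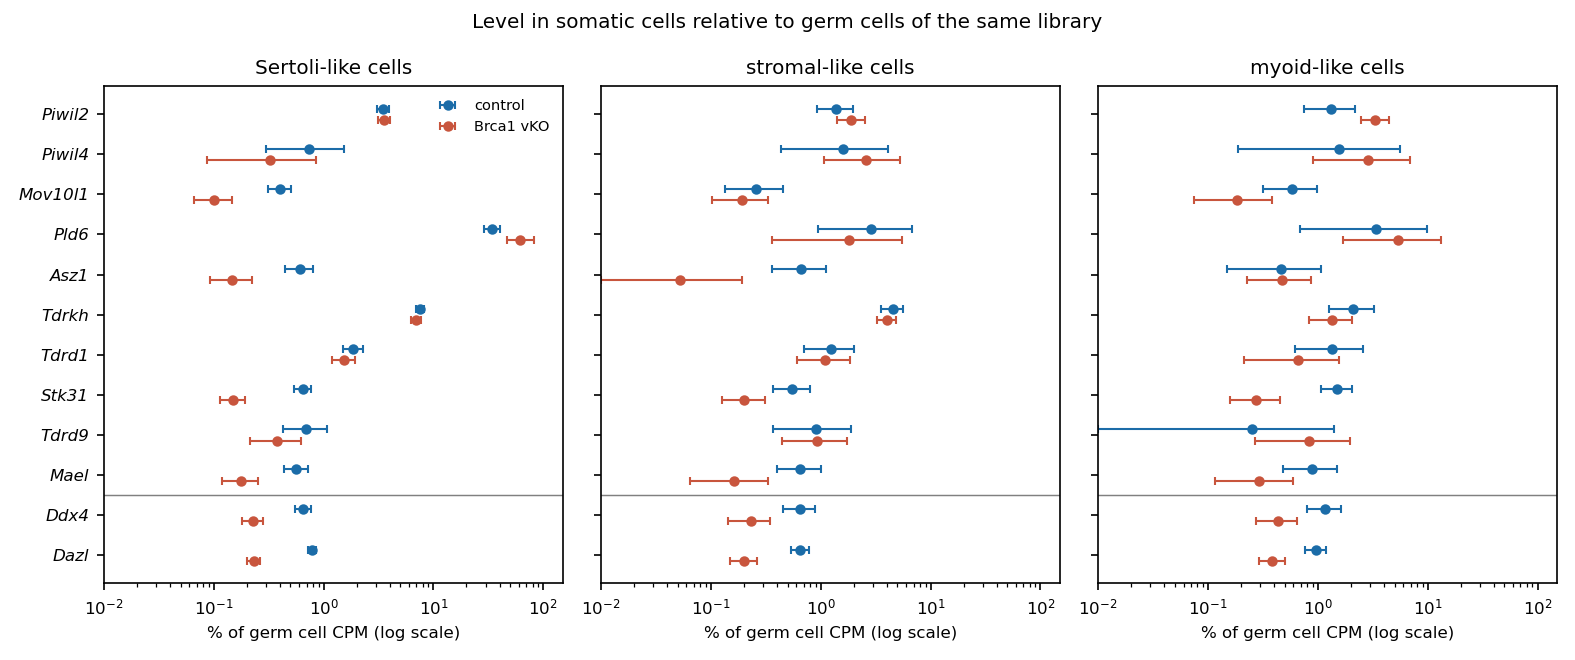
Level of the 10 members, and of the germ cell genes *Ddx4* and *Dazl* below the line, in Sertoli-, stromal- and myoid-like cells as a percentage of the level in germ cells of the same library (log axis, exact conditional 95% intervals; intervals that reach 0 are cut at the left edge). *Pld6* in Sertoli-like cells stands at 34.1% (control, blue) and 61.7% (*Brca1* vKO, red), whereas *Mov10l1*, *Asz1*, *Stk31* and *Mael* lie at or below the bounds of *Ddx4* and *Dazl*.

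By the rule that a gene's lower bound must exceed the upper bounds of *Ddx4* and *Dazl*, 4 of 10 members were above in Sertoli-like cells of both libraries, namely *Pld6*, *Tdrkh*, *Piwil2* and *Tdrd1*. The same rule is met by 94.7% of all genes for the control and 98.0% for *Brca1* vKO. Nothing is read from this difference, since the members were chosen as germ line genes. Being above was not particular to Sertoli-like cells. In the *Brca1* vKO library 6 members were above in stromal-like, 5 in Leydig-like and 4 in myoid-like cells, and in the control 3, 1 and 0. The share of all genes was not computed for these classes, so nothing is read from these counts either. Over all named somatic cells 4 members were above in the control, beside 96.8% of all genes, and 6 in the *Brca1* vKO library, beside 98.6%. The 2 further members were *Piwil4* and *Tdrd9*, with 18 and 34 UMIs over 7917 cells, where the upper bound of *Ddx4* and *Dazl* was 0.293% against 0.947% in the control. In this sum over all named somatic cells, *Mov10l1*, *Asz1*, *Stk31* and *Mael* were not above in either library. Their levels there were 0.424% to 0.846% of those in germ cells in the control and 0.127% to 0.186% in the *Brca1* vKO library.

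Counts in the small clusters were too few to order them. In the control the neutrophil-like (51 cells) and endothelial-like cells (27 cells) also held *Dazl* at 57.3 and 62.3 CPM, so that germ cell RNA was higher in these 2 clusters than in Sertoli-like cells, where *Dazl* had 8.86 CPM. The yardstick genes did not keep 1 ratio everywhere: *Ddx4* and *Dazl* stood at 10.4% and 5.51% of their germ cell levels in the control endothelial-like cells and at 3.28% and 5.07% in the neutrophil-like cells. The part of free RNA and doublets in the somatic values was not tested. *Pld6* had 0 to 2 UMIs in each of the Leydig-, pericyte-, endothelial- and neutrophil-like clusters of either library, too few to give it a level there at this depth.

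**Figure D4:**
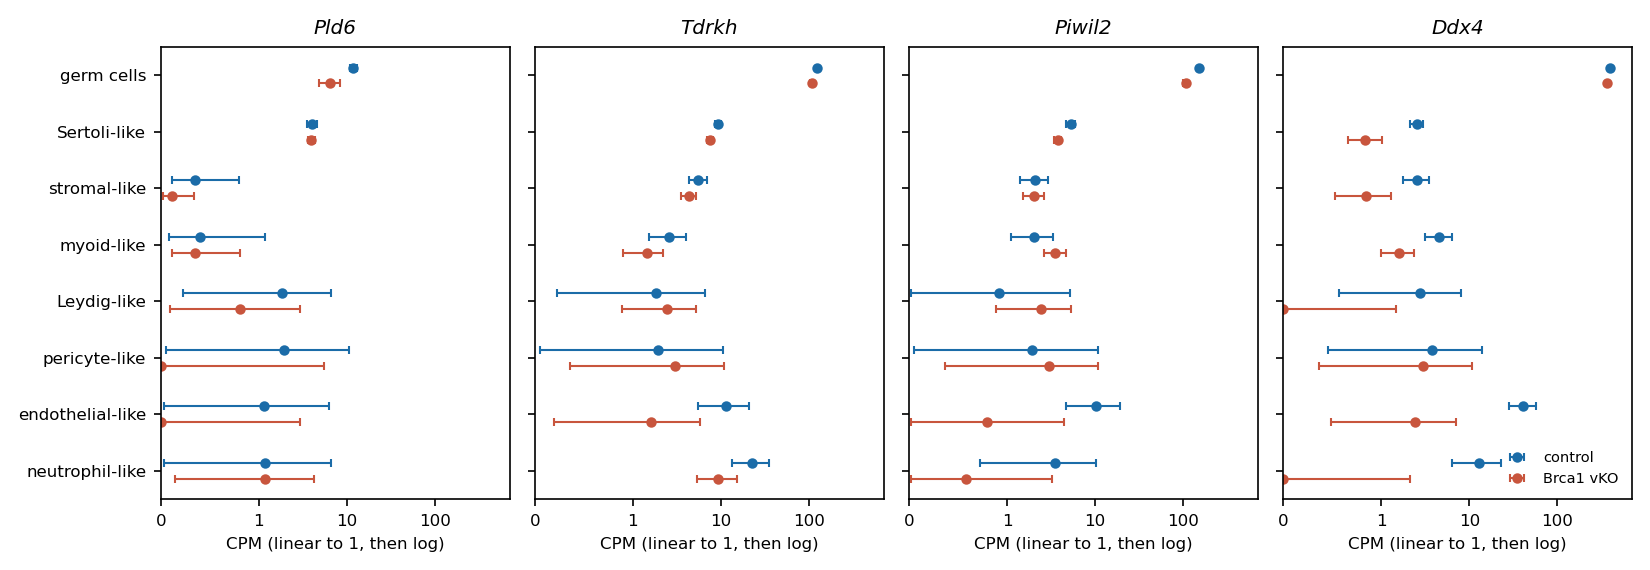
Level of *Pld6*, *Tdrkh*, *Piwil2* and the germ cell gene *Ddx4* (CPM, linear from 0 to 1 and logarithmic above) in germ cells and 7 somatic clusters of the control (blue) and *Brca1* vKO (red) library, with exact 95% Poisson intervals. *Ddx4* is at 2.55 CPM in Sertoli-like and 2.54 CPM in stromal-like cells of the control, while *Pld6* is at 4.04 and 0.344 CPM.

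Over 24 sums (each class and library), the gene most like each member was sought among 11923 genes by Pearson correlation of log2(CPM + 10). The sums share libraries and depth, so these values are a description. They also cover germ cell classes and somatic clusters together. Genes with RNA mainly in germ cells can therefore reach high values whatever their differences among the germ cell classes. Likeness within germ cells alone was not tested. *Stk31* and *Asz1* were most like *Ddx4* (r = 0.997 and 0.996), *Mov10l1* like *Ankrd31* (0.995), *Mael* like *Taf7l* (0.996), *Tdrd1* like *Mael* (0.991) and *Tdrkh* like *Riox2* (0.990). *Piwil2* was most like *Tdrd9* (0.993), *Tdrd9* like *Mov10l1* (0.993) and *Piwil4* like *Adad2* (0.987). *Pld6* had the lowest value, 0.955 with *Rab11fip4*.

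Another 21 genes of the pathway gave a background for the members. In the control, 18 of them had enough UMIs to compare the stages, and 0 were higher and 4 lower in the *Kit/Stra8* class by at least 1.5 times, beside 18.1% and 14.4% of all genes: *Morc1* (0.459), *Tdrd5* (0.493), *Gtsf1* (0.662) and *Spocd1* (0.261). *Morc1*, which acts in silencing of transposons in fetal germ cells, had 152 and 69.6 CPM, and *Tdrd5*, a Tudor protein of piRNA precursor processing, had 79.8 and 39.4 CPM. *Spocd1*, a partner of MIWI2 in DNA methylation, had 4.74 and 1.24 CPM, from 57 and 14 UMIs. Among the genes of both lists with enough UMIs, *Spocd1*, *Morc1*, *Tdrd5* and *Piwil4* had the lowest ratios, while *Tdrd9* was level.

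Between the genotypes in the *Gfra1/Ret* class, 0 of the 18 were higher and 3 lower by at least 1.5 times, beside 10.7% and 9.75% of all genes, with a median of 0.781. These were *Spocd1* (0.304, from 57 control and 9 *Brca1* vKO UMIs), *Morc1* (0.520) and *Btbd18* (0.657). *Fkbp6*, a co-chaperone of PIWI loading, was at 0.669. *Exd1* was the highest of the list, with 24.4 and 32.1 CPM and a ratio of 1.31 (1.09 to 1.58). In the *Brca1* vKO library 16 were compared between the stages, and 2 were higher, *Btbd18* (3.05) and *Henmt1* (2.68), and 0 lower, beside 13.0% and 24.6% of all genes. These 2 ratios rest on 13 and 14 UMIs in the *Kit/Stra8* class. In the *Kit/Stra8* class 17 were compared between the genotypes, and 4 were higher and 0 lower, beside 10.4% and 25.7% of all genes and from sums of 4 to 25 UMIs in the 9 cells. Over all germ cells 1 of 18 was higher, *Exd1* (1.54), and 3 were lower, *Spocd1* (0.319), *Henmt1* (0.605) and *Fkbp6* (0.661), beside 9.03% and 14.4% of all genes.

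In Sertoli-like cells 13 of the 21 other genes were above the level that *Ddx4* and *Dazl* give for the control and 17 for *Brca1* vKO, beside 94.7% and 98.0% of all genes, so nothing is read from these counts. *Fkbp6* was prominent, with 60.4 and 55.7 CPM, 12.1% and 16.9% of its germ cell level. *Mybl1*, the transcription factor A-MYB, had 38.5 and 39.4 CPM in Sertoli-like cells against 5.98 and 6.19 CPM in germ cells. *Dnmt3c*, a rodent DNA methyltransferase of transposon promoters, had 232 UMIs (4.26 CPM) in the Sertoli-like cells of the control and 421 UMIs (4.13 CPM) in those of the *Brca1* vKO library, with 4 and 1 UMIs in all germ cells.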

How the data were processed

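The 10 genes, the lists and the alternatives were chosen with earlier results of these data known. The authors aligned the reads of 1 control and 1 *Brca1* vKO library to mm10 with Cell Ranger 6.0.2, per the labels, and deposited counts of UMIs per gene and cell, not normalized. Following the study's methods, cells needed 750 or more genes and no more than 10% mitochondrial UMIs. Counts were log-normalized, 2000 variable genes (less the piRNA genes among them) reduced to 20 components in Seurat 5.3.0 under R 4.3.3, aligned between libraries by Harmony's method and clustered at a resolution of 0.25. Clusters were named from 4 markers per class, red blood cells left out, with at least 3 detected, a score of at least 1 and leading genes not of another class. Doublets were marked by Scrublet in scanpy 1.11.5 and kept. The 3 clusters left unnamed entered no sum of somatic cells. UMIs were summed per class and library and scaled to 1000000 UMIs of that sum (CPM). Ratios carry exact conditional, sums exact Poisson and shares exact Clopper-Pearson intervals at 95% (scipy 1.17.1), for counting error only. Shares of thinned cells are means over all draws, computed without drawing, with intervals set on the expected number of cells; the intervals of ratios of ratios are approximate. A ratio counted from 1.5 up or 0.667 down with at least 50 UMIs. The genes named are the members, the other pathway genes, the markers and, per member, the 3 genes most like it, of which the first is printed. Alternatives changed the cell filter, correction, doublets, class rules, depth, minimum UMIs, fold and scaling (TMM, edgeR 4.0.16). The interval and clustering steps were tested on simulated data. Promoters are from RefSeq (GRCm38.p6), gene positions from GENCODE M21.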

Additional observations from a re-analysis of the deposited data

Results flagged for a closer look

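The ratio between the *Kit/Stra8* and the *Gfra1/Ret* class pointed in opposite directions in the 2 libraries for 3 members. The share of all genes that did so was not computed, so nothing is read from this count. The median over all genes itself lay on either side of 1, at 1.06 (control) and 0.955 (*Brca1* vKO). *Asz1* had a ratio of 1.21 in the *Brca1* vKO library and 0.799 in the control, *Tdrkh* 0.856 against 1.40, and *Tdrd1* 1.75 against 0.842. With 1 mouse per genotype these differences were not tested, and the *Brca1* vKO values rest on 57, 31 and 27 UMIs in 9 cells. For *Asz1* and *Tdrkh* the interval of the *Brca1* vKO ratio holds 1, and its direction turns with the processing. *Asz1* was at 0.977 and 0.940 with marker cuts of 50 and 200 CPM, and *Tdrkh* at 1.05 with a cut of 200 CPM, 1.002 with stages from germ sub-clusters and 1.36 in a random draw of thinned cells. *Tdrd1* stayed above 1 in the *Brca1* vKO library, at 1.49 to 1.92, and below 1 in the control, at 0.762 to 0.9501, under the alternatives run.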

How the results depend on the processing

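No paired analysis was possible because each genotype has 1 library. Thinning was also computed as the mean over all draws, an alternative chosen after seeing the data. Of 580 ratios of single members under the alternatives, 523 stayed within their reported interval, 57 moved further and 0 called ratios changed direction. Counts of members past 1.5 times moved as follows. In the control stage comparison, the number lower was 2 with a mitochondrial limit of 5%, with TMM scaling and with cells thinned to 10000 UMIs in 1 draw, since *Stk31* then passed, and in that draw the member higher was *Tdrkh* (1.56) in place of *Pld6* (1.26). As the mean over draws 2 were higher, *Pld6* (1.68) and *Tdrkh* (1.52). In the *Gfra1/Ret* class, the number lower in the *Brca1* vKO library was 1 with marked doublets removed, and *Mael* was at 0.657 with the 5% limit. *Pld6* was no longer counted there with a marker cut of 200 CPM, nor with thinned cells in the draw or as the mean over draws. Over all germ cells the 5% limit put *Piwil4* (0.589) in the place of *Tdrd1* (0.721). In the *Brca1* vKO stage comparison, the number higher was 2 with stages from germ sub-clusters, with the thinning draw and with a minimum of 10 UMIs, and 0 with germ cells taken by 2 UMIs of *Ddx4* and *Dazl*. The number lower there was 1 with a marker cut of 50 CPM, with sub-clusters, with germ cells by 2 UMIs and with doublets removed, and 3 with the 5% limit. In the *Kit/Stra8* class, the number lower was 0 with a cut of 200 CPM and with a minimum of 20000 UMIs, and 4 lower and 1 higher with the 5% limit, and 1 higher, *Asz1* (1.53), as the mean over thinning draws. With a fold of 2, all these counts and the count over all germ cells were 0. The causes were not tested. The *Brca1* vKO *Kit/Stra8* class held 4 to 11 cells over these alternatives. *Tdrd1* in the *Gfra1/Ret* class stayed between 0.488 and 0.597, *Piwil4* between 0.459 and 0.682 and *Pld6* between 0.607 and 0.756, while the control stage ratio of *Pld6* ranged from 1.26 to 3.31 and that of *Piwil4* from 0.482 to 0.647. In the *Brca1* vKO library that of *Tdrkh* ranged from 0.327 to 1.36, of *Asz1* from 0.940 to 1.42, of *Mov10l1* from 0.480 to 1.47, of *Tdrd9* from 0.530 to 1.55, of *Piwil2* from 0.70 to 1.40, of *Pld6* from 1.21 to 3.81 and of *Piwil4* from 0 to 0.917. Depth limits *Piwil4* and *Pld6* most, with 3 and 7 UMIs in the *Kit/Stra8* class of the *Brca1* vKO library.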
